A study of Mus musculus with 92 samples.

Results

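CTCF peaks were compared between male germline stem cells (GSC) in which STAG3 was the remaining STAG subunit of mitotic cohesin and GSC that lacked STAG3. The first genotype, labelled GSC_Stag1Stag2dKO or Stag3-only, has Stag1 and Stag2 knocked out and is called STAG3-only here. The second, labelled GSC_Stag3KO, has Stag3 knocked out, keeps STAG1 and STAG2, and is called STAG3-knockout here. Both were derived from the mouse GSC line AAG, which carries Acrosin-EGFP and beta-Actin-EGFP, and cells positive for the AAG signal had been sorted before chromatin was prepared. The labels name no drug treatment or animal age for these groups, and do not say whether a genotype is represented by 1 clone. The deposited peak lists hold no expression values, so the cell type could not be checked against marker genes.

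The members are all CTCF peaks on chromosomes 1 to 19 in the 2 pooled lists, one per genotype, each called on 2 libraries together. There were 39938 such peaks in the STAG3-only list and 42179 in the STAG3-knockout list, 82117 of the 1162033 autosomal peaks in the 30 lists of the series. A peak is called shared here when it overlapped a peak of the other list by at least 1 bp, and unmatched when it overlapped none. Of the other lists, 8 come from STAG1, STAG2 or STAG3 ChIP-seq in wild-type GSC (2, 3 and 3 lists, each from 1 library), 2 are CTCF lists of GSC with STAG1 alone (GSC_Stag2Stag3dKO) or STAG2 alone (GSC_Stag1Stag3dKO), and 18 are wild-type STAG1 and STAG2 lists from 4 other cell types. Samples of the series (92 in all) for which no list was given were not analysed here. Because both libraries of a genotype were called together, a list does not show whether both libraries held a peak, and no replicate error or test between the 2 genotypes is possible.

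CTCF is a zinc-finger protein that binds a long, partly fixed DNA sequence and marks many of the boundaries and loop ends of chromosomes. Cohesin is a ring-shaped complex that extrudes DNA loops and is stopped at CTCF; its STAG subunit touches both the ring and CTCF. STAG1 and STAG2 are the subunits of most dividing cells, and STAG3 was first known from meiotic cohesin. In the germline, these loops and boundaries are laid over a genome that has lost and regained much of its DNA methylation, and CTCF binding at some sites is known to be sensitive to that methylation.

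To show the sequence of such sites, the promoters that held the summit of an unmatched peak were searched on both strands for the most fixed letters of the known CTCF sequence: CC, any 3 bases, AG, any 2 bases and GGC. Promoter windows and sequences are from RefSeq (GRCm38.p6) and run from 250 bases before to 50 bases after a gene's start. The letters were present in 8.73% of all 31365 windows. They were present in 9 of the 64 windows with the summit of a peak unmatched in the STAG3-only list (14.1%), and in 29 of the 104 windows with one unmatched in the STAG3-knockout list (27.9%). In windows with the summit of a shared peak they were present in 44.9% of 1315 for the STAG3-only list and 45.1% of 1305 for the STAG3-knockout list. A match is a description of letters and not a mapped binding site. The sequences below are the 4 of each list whose peaks had the highest fold enrichment among unmatched peaks with the letters upstream of the start, 6 promoters in the STAG3-only list and 19 in the STAG3-knockout list. They read 5′ to 3′ on the gene's strand, with the match in capitals. Where the capitals begin with GCC, the match is on the opposite strand.

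The first 4 lie under peaks called in STAG3-knockout and not in STAG3-only GSC.
Slc2a1: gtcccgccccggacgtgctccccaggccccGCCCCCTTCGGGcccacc
Asb1: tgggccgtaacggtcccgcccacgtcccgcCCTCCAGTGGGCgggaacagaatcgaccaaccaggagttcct
Fam234a: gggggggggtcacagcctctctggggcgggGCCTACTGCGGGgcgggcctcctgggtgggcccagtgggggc
Calr: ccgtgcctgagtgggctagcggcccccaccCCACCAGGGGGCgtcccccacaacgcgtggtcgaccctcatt

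The other 4 lie under peaks called in STAG3-only and not in STAG3-knockout GSC.
Cdc42ep1: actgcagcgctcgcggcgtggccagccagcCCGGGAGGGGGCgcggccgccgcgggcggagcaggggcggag
Gzf1: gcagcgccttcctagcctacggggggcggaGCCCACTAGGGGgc
1700123O20Rik: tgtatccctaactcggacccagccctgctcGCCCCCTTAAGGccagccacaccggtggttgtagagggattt
Frmpd1: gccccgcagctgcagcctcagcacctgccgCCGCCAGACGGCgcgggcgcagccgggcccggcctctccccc

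Slc2a1 encodes the glucose transporter GLUT1, and its stretch spans chr4:119108697-119108744 on the + strand. The peak over it had a fold enrichment of 6.94 in the STAG3-knockout list, with its summit 139 bp from the capitals, and was also called in both other CTCF lists. Fold enrichment is the authors' value for the signal at the summit over the local background, and is used here only to describe or rank peaks within a list. Calr encodes calreticulin, a calcium-binding chaperone of the endoplasmic reticulum. The capitals of its stretch (chr8:84847077-84847148, − strand) lay 14 bp from the summit of a peak with a fold enrichment of 5.81. That peak was likewise called in both other CTCF lists. The capitals of the Asb1 stretch (chr1:91540419-91540490, + strand) and the Fam234a stretch (chr17:26244215-26244286, − strand) lay 42 and 87 bp from the summits. The fold enrichments of these peaks were 6.45 and 6.13. Both peaks were also called in the STAG1-only list and not in the STAG2-only list. The Asb1 peak overlapped all 3 wild-type STAG3 lists and no STAG1 or STAG2 list.

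In the STAG3-only list, the capitals of Cdc42ep1 (chr15:78842509-78842580, + strand), a gene for an effector of the GTPase CDC42, lay 1 bp from the summit of a peak with a fold enrichment of 4.84. Those of Gzf1 (chr2:148681076-148681119, + strand), which encodes a zinc-finger protein, lay 11 bp from a summit with a fold enrichment of 4.49. The capitals in the stretches of 1700123O20Rik (chr14:54686075-54686146, + strand) and Frmpd1 (chr4:45184722-45184793, + strand) lay 23 and 89 bp from the summits. The fold enrichments of these peaks were 4.37 and 4.22. Each of the last 2 peaks was absent from every other CTCF list. The Frmpd1 peak overlapped 2 STAG2 and 2 STAG3 lists of wild-type GSC, and the 1700123O20Rik peak overlapped none.

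Most CTCF peaks were common to both genotypes. Unmatched peaks made up 5.24% of the STAG3-only list (2092 peaks, exact 95% binomial interval 5.02 to 5.46) and 10.3% of the STAG3-knockout list (4341 peaks, interval 10.0 to 10.6). The intervals cover counting error only. The STAG3-knockout list was 1.06 times as long as the STAG3-only list and held 2.08 times as many unmatched peaks. Where peaks were shared, their summits were a median of 8 bp apart, and 97.7% of 37846 were within 50 bp. Unmatched peaks were rarely near misses: 39 of 2092 (1.86%) lay within 250 bp of a peak of the other list for STAG3-only, and 45 of 4341 (1.04%) for STAG3-knockout. Within 1 kb there were 148 (7.07%) and 236 (5.44%).

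Unmatched peaks were the weaker and narrower ones in both lists. Their median fold enrichment was 4.69 against 18.1 for shared peaks in the STAG3-only list, and 5.65 against 21.6 in the STAG3-knockout list. Median widths were 227 against 390 bp and 245 against 411 bp. In the STAG3-only list, 36.1% of the peaks under a fold enrichment of 5 were unmatched, then 11.6% from 5 to 7.5, 1.20% from 7.5 to 10, 0.194% from 10 to 20 and 0.00582% at 20 or more. The STAG3-knockout list ran from 45.5% through 31.9%, 13.1% and 4.89% to 0.702% over the same classes. In the STAG3-only list, 20 of the unmatched peaks (0.956%) had a fold enrichment of at least 10, and 1 of at least 20. In the STAG3-knockout list, 594 (13.7%) had at least 10, and 143 at least 20. Shared peaks had different medians in the 2 lists, so a class does not mark the same strength in both, and the classes are read within a list.

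**Figure D1:**
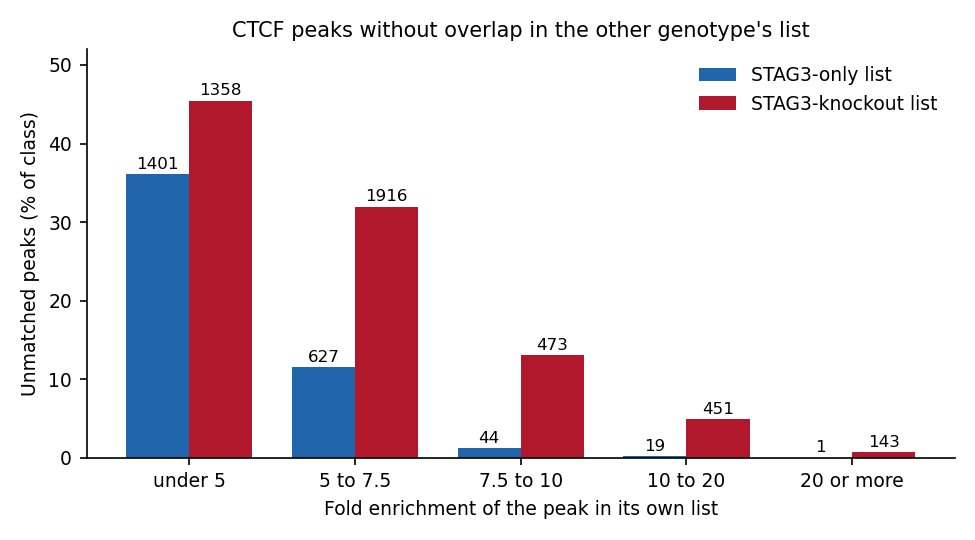
Percent of CTCF peaks without overlap in the other genotype's list (y axis), by the peak's fold enrichment in its own list (x axis). Each bar is 1 pooled list with no replicate error, and the number over it is the count of unmatched peaks; in both lists the share falls with fold enrichment, from 36.1% to 0.00582% in STAG3-only and from 45.5% to 0.702% in STAG3-knockout.

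Every autosome carried unmatched peaks of both kinds. In the STAG3-only list they made up from 4.24% of the peaks on chromosome 11 to 6.55% on chromosome 1. In the STAG3-knockout list they made up from 7.99% on chromosome 19 to 12.9% on chromosome 16, and the percentage was higher than that of the STAG3-only list on each of the 19 chromosomes.

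The 2 sets of unmatched peaks lay at different distances from genes. A peak was counted at a gene end when it lay within 2500 bp of either boundary of a protein-coding gene; 20665 such genes lie on the autosomes. In STAG3-only, 446 unmatched peaks (21.3%) lay at a gene end against 19.1% of shared peaks, 2.22 percentage points more. In STAG3-knockout, 676 unmatched peaks (15.6%) did against 19.1% of shared peaks, 3.57 points fewer. Peaks inside genes followed the same directions, with 53.5% of unmatched against 50.8% of shared peaks in STAG3-only and 45.2% against 50.9% in STAG3-knockout. The median distance to a gene end was 13.8 kb for unmatched and 14.5 kb for shared peaks in STAG3-only, and 24.2 and 14.5 kb in STAG3-knockout. More than 100 kb from any gene end lay 274 unmatched STAG3-only peaks (13.1%) and 1072 unmatched STAG3-knockout peaks (24.7%), against 13.0% of the shared peaks of either list.

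Gene starts could be told from 3′ ends on 18 autosomes through the promoter table, which gives a strand for 16457 of the genes. Within 2500 bp of a start lay 14.4% of unmatched and 10.9% of shared STAG3-only peaks, and 9.76% of unmatched and 10.9% of shared STAG3-knockout peaks. At another gene end and not a start lay 8.38% against 9.60% in STAG3-only and 6.93% against 9.61% in STAG3-knockout. The excess of unmatched STAG3-only peaks at gene ends was thus at starts. This comparison was added after the peak lists had been read.

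The position of unmatched peaks moved with their fold enrichment. In STAG3-knockout, gene-end shares fell from 22.9% under a fold enrichment of 5 to 15.2%, 8.46%, 5.76% and 4.90% in the classes above it. The shared peaks of that list stayed between 18.1% and 24.4%. The median distance of the unmatched peaks to a gene end rose from 14.1 kb in the lowest to 108 kb in the highest class. In STAG3-only, the gene-end share was 24.3% of 1401 unmatched peaks under 5, 15.2% of 627 peaks from 5 to 7.5, and 6.82% of 44 peaks from 7.5 to 10. From 10 to 20 it was the highest, 7 of 19 peaks (36.8%), and the 1 peak above that was not at a gene end. Shared STAG3-only peaks had 21.8% under 5, 18.7% from 5 to 7.5, 19.4% from 7.5 to 10 and 19.2% from 10 to 20. Unmatched STAG3-only peaks were thus above shared ones under 5 and from 10 to 20, and below them from 5 to 10. The 2.22-point excess was lost among STAG3-only peaks with a −log10 q of at least 10, where the difference was −0.081 points.

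**Figure D2:**
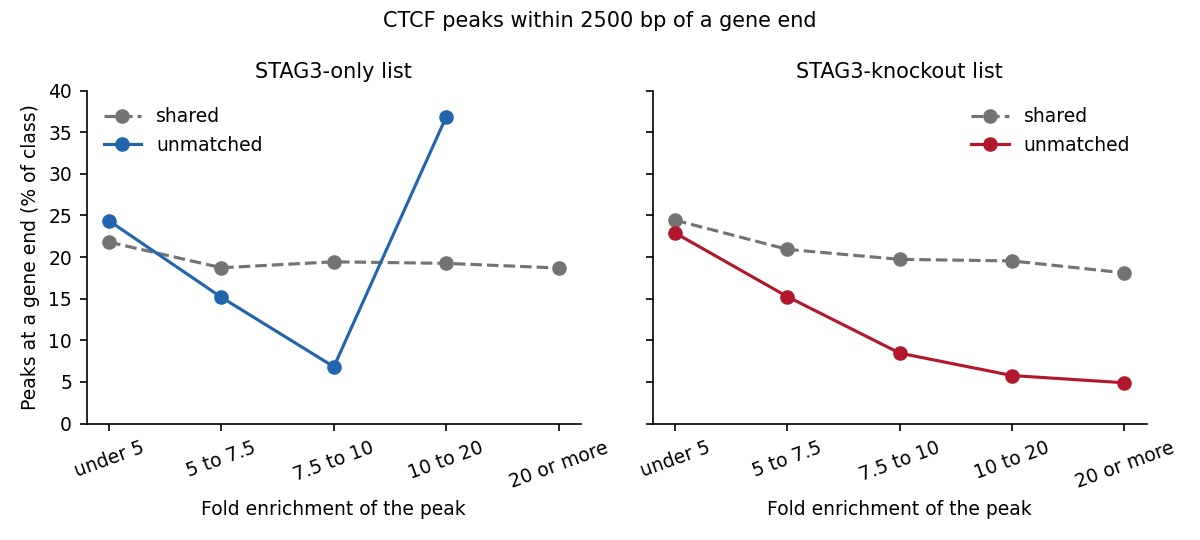
Percent of CTCF peaks within 2500 bp of a gene end (y axis) by fold enrichment class (x axis), for unmatched peaks (solid lines) and shared peaks (dashed grey lines) of each list. In STAG3-knockout the unmatched line falls from 22.9% to 4.90% while shared peaks stay between 18.1% and 24.4%; the STAG3-only point from 10 to 20 (36.8%) rests on 19 peaks, and its class of 20 or more, with 1 peak, is not drawn.

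Overlap with the cohesin subunits of wild-type GSC was low at unmatched peaks of both genotypes. No peak of any of the 8 STAG lists was found at 1859 unmatched STAG3-only peaks (88.9%) and at 3855 unmatched STAG3-knockout peaks (88.8%), against 44.4% of shared peaks in each list. The size of this contrast differed by fold enrichment, and it was smallest under 5 in STAG3-knockout. Among peaks with a fold enrichment under 5, a peak of any of the 8 lists was found at 13.1% of unmatched and 23.4% of shared STAG3-only peaks, and at 18.3% of unmatched and 21.1% of shared STAG3-knockout peaks. From 5 to 7.5 the shares were 7.02% against 20.8% in STAG3-only and 9.24% against 18.3% in STAG3-knockout. In STAG3-knockout they were 6.43% against 39.6% from 10 to 20, and 4.20% against 77.8% at 20 or more. For STAG1, the 2 lists overlapped 4 and 7 unmatched STAG3-only peaks (0.191% and 0.335%) and 9 and 18 unmatched STAG3-knockout peaks (0.207% and 0.415%). They overlapped 24.8% and 27.2% of shared STAG3-only peaks, but a mean of 1.95% ± 0.313 (SD, n = 2 lists) of those with a fold enrichment under 5, where the mean at unmatched peaks was 0.321% ± 0.151 (SD, n = 2). In the STAG3-knockout list these means under 5 were 0.614% ± 0.174 (SD, n = 2) for shared and 0.368% ± 0.208 (SD, n = 2) for unmatched peaks. Conversely, 98.9% and 97.7% of the peaks in the 2 STAG1 lists lay at shared CTCF sites.

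For STAG2, the 3 lists overlapped 2.96%, 0.574% and 2.58% of unmatched STAG3-only peaks, and 4.26%, 1.54% and 4.24% of unmatched STAG3-knockout peaks. Each STAG2 list was thus higher at the STAG3-knockout peaks, and the cause was not tested. For STAG3, the 3 lists overlapped 2.10%, 7.70% and 8.70% of unmatched STAG3-only peaks, and 2.26%, 6.89% and 7.16% of unmatched STAG3-knockout peaks. The longer STAG3 lists 2 and 3 were higher at the STAG3-only peaks, and list 1, with 12771 peaks against 38281 and 39322, was slightly lower. Within the lowest fold classes the STAG3 mean was lower at STAG3-only peaks. It was 7.30% against 9.33% under 5, and 3.93% against 4.82% from 5 to 7.5 (n = 3 lists). From 7.5 to 10, with 44 and 473 unmatched peaks, it was 2.27% against 1.83%. A class does not mark the same strength in both lists.

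Per list, the percent of unmatched STAG3-only peaks overlapped minus that of unmatched STAG3-knockout peaks was −0.016 and −0.080 points for STAG1, −1.30, −0.97 and −1.66 points for STAG2, and −0.15, 0.81 and 1.54 points for STAG3. The mean was 0.730 over the 3 STAG3 lists and −0.804 over the 5 STAG1 and STAG2 lists. That difference of 1.53 points did not pass a two-sided exact permutation test over the 8 lists (p = 0.0714; the smallest p this design allows is 0.0179). With all STAG lists reduced to 9497 peaks, the difference was 0.229 points (exact permutation p = 0.196). It was 1.98 points without STAG3 list 1 (exact permutation p = 0.0476) and 1.13 points without STAG3 list 3 (exact permutation p = 0.238). The 2 sets of unmatched peaks were not matched for fold enrichment in these tests. The names of the STAG3 peaks carry a different directory from the names of STAG1 and STAG2 peaks, so the antibody and a separate calling run cannot be told apart.

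**Figure D3:**
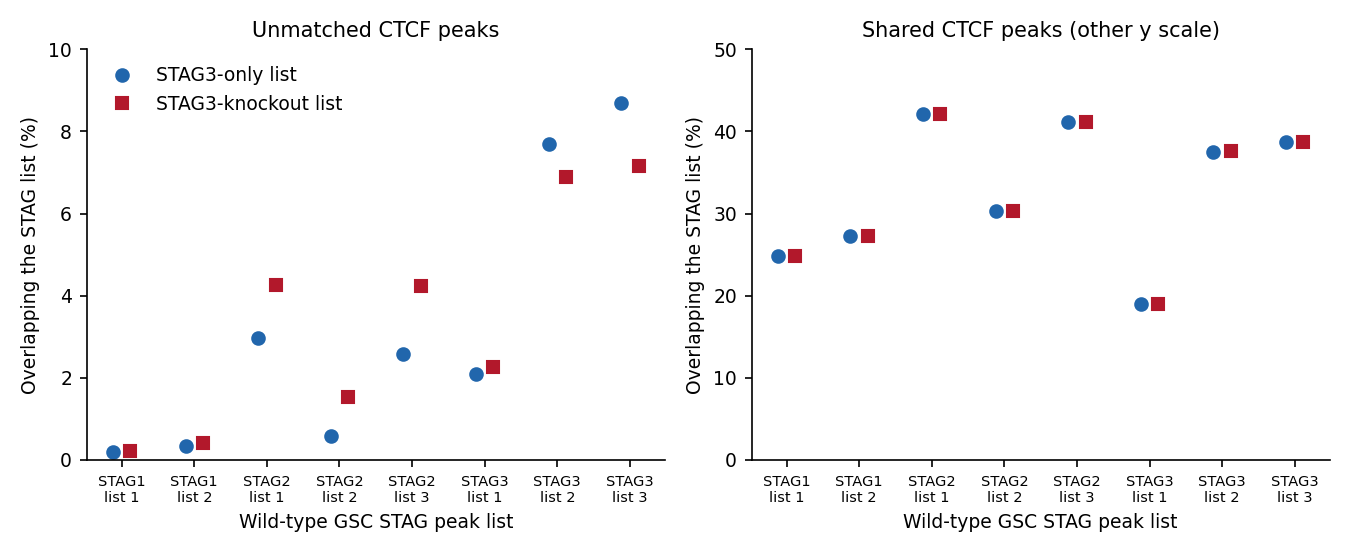
Percent of unmatched (left) and shared (right, on another scale) CTCF peaks overlapping each of the 8 wild-type GSC STAG lists; circles are STAG3-only and squares STAG3-knockout, 1 point per list. All 5 STAG1 and STAG2 lists are lower at unmatched STAG3-only than at unmatched STAG3-knockout peaks, STAG3 lists 2 and 3 are higher, and at shared peaks the points of both genotypes coincide.

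The few unmatched peaks with STAG3 alone lay mostly at gene ends in both genotypes. A peak in at least 2 STAG3 lists and in no STAG1 or STAG2 list was found at 83 unmatched STAG3-only peaks (3.97%), of which 57 (68.7%) lay at a gene end. It was found at 113 unmatched STAG3-knockout peaks (2.60%), of which 79 (69.9%) did. Among shared peaks of this kind the gene-end share was 42.8% in STAG3-only and 43.2% in STAG3-knockout. The trait was not particular to STAG3 alone. Unmatched peaks in at least 2 STAG2 and at least 2 STAG3 lists, and in no STAG1 list, were also mostly at gene ends. They lay there in 20 of 22 cases (90.9%) in STAG3-only and 43 of 56 (76.8%) in STAG3-knockout. Unmatched peaks in none of the 8 lists lay at gene ends in 15.4% and 10.7% of cases. All 3 STAG3 lists overlapped 42 unmatched STAG3-only and 85 unmatched STAG3-knockout peaks, with gene-end shares of 69.0% and 75.3%.

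Of those 42 peaks, the highest fold enrichment was 14.4 at chr11:49903355-49903720, inside Rasgef1c, a gene for a predicted guanine nucleotide exchange factor. The summit there was 2367 bp from the nearest end of any protein-coding gene. This peak was also in 1 STAG1 list, 2 STAG2 lists and the STAG2-only CTCF list. The next 4 were inside Phf21b (8.28), a PHD-finger gene, inside Carmil2 (7.18), a regulator of actin capping, 500 bp from the histone gene H2bc14 (5.47), and inside Efna5 (5.47), which encodes the guidance ligand ephrin-A5. Of the 85 STAG3-knockout peaks, the 5 highest lay near LOC115488129 (8.55) and Apbb1ip (8.23), a regulator of integrin activation, inside the receptor kinase gene Ros1 (8.07), near Atf2 (7.91), which encodes a bZIP transcription factor, and inside Pafah1b3 (7.42), which encodes a catalytic subunit of platelet-activating factor acetylhydrolase. Each of these 5 was also called in the STAG1-only CTCF list, and all but the Atf2 peak in the STAG2-only list.

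The 2 CTCF lists from GSC with a single somatic STAG subunit gave another reading of the same sites; both of these genotypes also lack STAG3. Of the unmatched STAG3-only peaks, 474 (22.7%) were in the STAG1-only list, 538 (25.7%) in the STAG2-only list, 234 (11.2%) in both and 1314 (62.8%) in neither. Of the unmatched STAG3-knockout peaks, 1794 (41.3%) were in the STAG1-only list, 1136 (26.2%) in the STAG2-only list, 900 (20.7%) in both and 2311 (53.2%) in neither. Among shared peaks, 96.4% were in the STAG1-only and 96.0% in the STAG2-only list for STAG3-only, and 1.80% were in neither. The 900 peaks were therefore called in all 3 other genotypes and not in STAG3-only GSC, and the 234 were called in all 3 others and not in STAG3-knockout GSC. The STAG1-only list held 894 unmatched STAG3-knockout peaks that the STAG2-only list lacked, and 236 were found the other way round. Among unmatched STAG3-only peaks the same counts were 240 and 304.

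Support in these lists was highest at middle fold enrichments. For unmatched STAG3-knockout peaks, the share in both other CTCF lists rose from 12.0% under a fold enrichment of 5 to 17.6%, 36.2% and 42.6%, and was 25.2% at 20 or more. The share in neither fell from 62.1% to 52.7% and 34.9%, was 42.4% from 10 to 20, and was 71.3% at 20 or more.

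**Figure D4:**
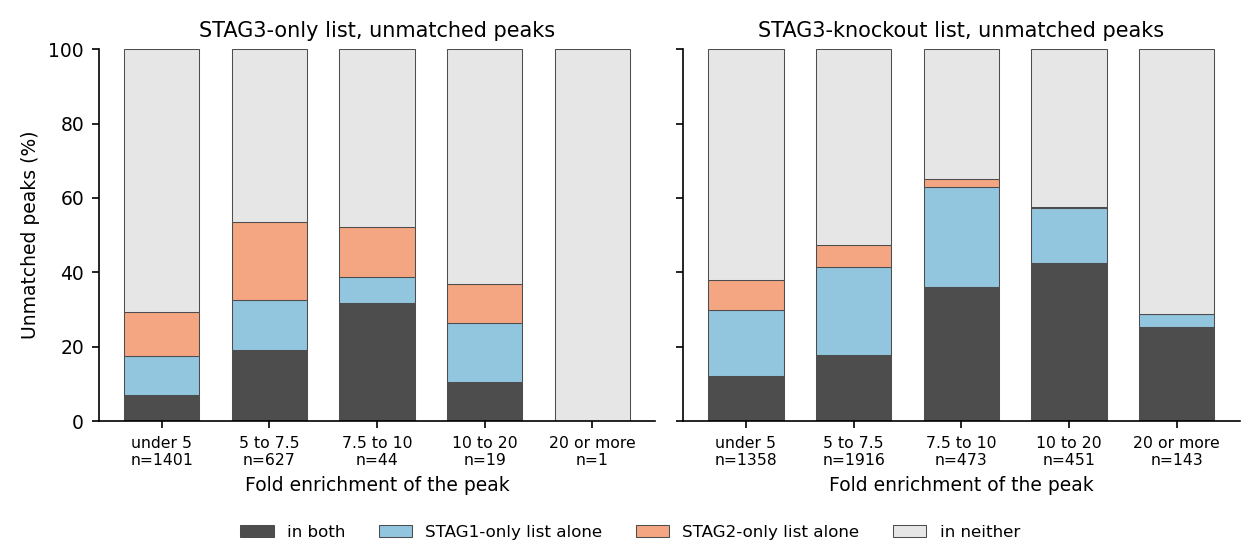
Unmatched CTCF peaks by their presence in the STAG1-only and STAG2-only CTCF lists (stacked percent, y axis) for each class of fold enrichment (x axis, with the number of peaks). In STAG3-knockout the part in neither list falls to 34.9% from 7.5 to 10 and is 71.3% at 20 or more; the STAG3-only classes from 7.5 upward hold 44, 19 and 1 peaks.

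The 143 strongest unmatched STAG3-knockout peaks differed from the weaker ones in several ways. Of them, 102 were in neither other CTCF list, and none of those 102 overlapped any of the 26 STAG lists of the series, so that they were called in the STAG3-knockout CTCF list alone. Of the 3747 unmatched peaks with a fold enrichment under 10, 768 (20.5%) were without overlap in every other list. The 102 peaks lay on 18 chromosomes, with at most 11 on a single one (chromosome 9). They were a median of 348 bp wide with a median fold enrichment of 29.2, 35 lay inside a gene, and 3 at a gene end. The 36 peaks of this strength in both other CTCF lists lay on 17 chromosomes with 13 inside a gene and 4 at a gene end.

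STAG lists of the other cell types were also read at these peaks. In embryonic stem cells (ESC), the STAG2 lists overlapped 47.2% ± 0.237 (SD, n = 2 lists) of unmatched STAG3-only peaks and 53.1% ± 0.782 (SD, n = 2) of unmatched STAG3-knockout peaks, against 81.6% of shared STAG3-only peaks. In epiblast-like cells (EpiLC) the STAG2 lists overlapped 55.9% ± 0.0338 (SD, n = 2) and 62.4% ± 0.456 (SD, n = 2), against 86.9%. More than 4 in 10 unmatched sites of GSC thus carried a STAG2 peak in each of these lists, while under 1 in 20 did in each STAG2 list of wild-type GSC. The ESC and EpiLC lists held 70828 to 82326 peaks and the GSC lists 13497 to 25653; the part of list length in this gap was not tested. GSC and these cells come from different cell lines, so line and cell type cannot be told apart. For unmatched STAG3-knockout peaks with a fold enrichment of 20 or more the mean STAG2 overlaps were 20.3% in ESC and 23.4% in EpiLC, below the 55.3% and 65.0% of those under 10, and against 88.0% and 92.3% of shared peaks of that strength. Of the 20 unmatched STAG3-only peaks with a fold enrichment of at least 10, 70.0% overlapped each ESC STAG2 list, above the mean of 47.0% of those under 10, so the direction with strength was the opposite in that list. At STAG3-knockout peaks, the 2 STAG1 lists of EpiLC overlapped 9.79% and 17.5% of the strong and 8.89% and 22.6% of the weak ones, with no common direction.

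**Figure D5:**
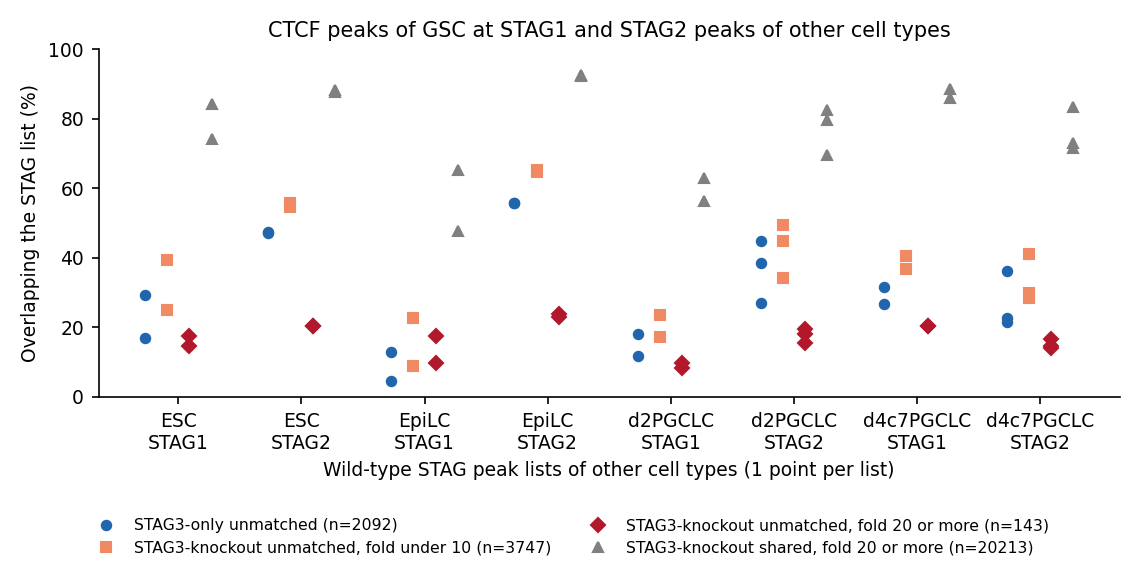
Percent of CTCF peaks of GSC overlapping each wild-type STAG1 or STAG2 list of ESC, EpiLC and primordial germ cell-like cells (d2PGCLC, d4c7PGCLC), 1 point per list. At STAG2 lists of ESC and EpiLC, strong unmatched STAG3-knockout peaks (diamonds) lie at 20.3% and 23.4% on average, below weak unmatched ones (squares, 55.3% and 65.0%) and below shared peaks of the same strength (triangles, 88.0% and 92.3%).

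The unmatched STAG3-knockout peak with the highest fold enrichment (45.4) lay at chr3:56623240-56623581, 439653 bp from the nearest gene, Nbea, which encodes the vesicle-trafficking protein neurobeachin. It was also called in the STAG1-only list. Next came a peak near the vomeronasal receptor gene Vmn2r41 (42.6, chr7:8078068-8078434) and one inside Iqck (42.6, chr7:118893743-118894110); the first was in no other CTCF list and the second in both. The fourth, at chr4:78043832-78044174 with a fold enrichment of 42.1, lay inside Ptprd, a receptor tyrosine phosphatase gene of synapse formation. The remaining 6 lay inside Esp38 (42.0), an exocrine-gland secreted peptide gene, inside Fam172a (41.8), near Scn3b (41.8), a sodium channel subunit gene, 1456892 bp from the protocadherin gene Pcdh7 (41.4), inside Trip12 (41.2), a ubiquitin ligase gene, and 537527 bp from Gm597 (40.8). Of the 10 peaks, 7 were in neither other CTCF list, and none overlapped a wild-type GSC STAG list.

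The strongest unmatched STAG3-only peak had a fold enrichment of 25.6 at chr2:10701459-10701838, 106401 bp from Sfmbt2, a Polycomb-associated gene. It was in no other CTCF list and no STAG list of wild-type GSC, but overlapped both STAG2 lists of ESC and both of EpiLC. Both STAG1 lists of ESC and of d4c7PGCLC, all 3 STAG2 lists of d4c7PGCLC and STAG2 lists 1 and 3 of d2PGCLC overlapped it too. The STAG1 lists of EpiLC and d2PGCLC did not. The second (19.2, chr18:37661500-37661849) lay inside Gm37013, a gene model that spans the clustered protocadherins, which encode adhesion proteins with cell-specific promoter choice. Its summit was 98 bp from the nearest end of any protein-coding gene. The third and the fourth lay near Gm4513 (18.3, chr7:20615146-20615462) and Gm4565 (18.0, chr7:22604253-22604578), both in a region of chromosome 7 dense in vomeronasal receptor genes. The next 6 lay near the alpha-defensin gene Defa20 (17.6), near Plvap (14.7), which encodes an endothelial diaphragm protein, inside Rasgef1c (14.4), near the arylsulfatase gene Arsj (13.6), 412701 bp from the growth factor gene Fgf9 (13.3), and 1449 bp from the myosin light chain gene Myl2 (13.0). Of these 10 peaks, 7 were in neither other CTCF list, Plvap and Myl2 being in the STAG1-only and Rasgef1c in the STAG2-only list.

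Some genes held several unmatched peaks. In STAG3-knockout, Ptprd, 2271 kb long, held 8 among its 16 peaks, with fold enrichments from 5.32 to 42.1, and the STAG3-only list had no unmatched peak there. Cntnap2, which encodes a neuronal adhesion protein and is 2241 kb long, held 6 of 16 (5.16 to 16.9), all absent from both other CTCF lists and with none unmatched in STAG3-only. The gene models Gm37013, Gm38666 and Gm38667 overlap each other along the clustered protocadherins, and each held 7 unmatched STAG3-knockout peaks among 59, 57 and 56 and 3 unmatched STAG3-only peaks. In the STAG3-only list, Gm7592 held 8 unmatched among 13 peaks, all with fold enrichments from 2.85 to 3.62, and its neighbours on chromosome 1, Gm38510 and the nuclear body gene Sp140, held 4 each. The STAG3-knockout list had 2, 4 and 0 unmatched peaks at these genes. The last 2 genes of the STAG3-only list, 4931408C20Rik and the calcium channel gene Cacna1a, held 3 each. At these 2 genes the STAG3-knockout list had 0 and 3 unmatched peaks.

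Divided into windows of 5 Mb with at least 20 peaks, the STAG3-knockout list had its highest share of unmatched peaks on chromosome 4 from 75 to 80 Mb, where 11 of 21 were unmatched (52.4%) and the genes nearest to them were Ptprd and Tyrp1, the pigment gene. On chromosome 15 from 15 to 20 Mb, 9 of 20 were unmatched (45.0%), nearest to the cadherin genes Cdh9 and Cdh10. In the STAG3-only list the highest was chromosome 14 from 95 to 100 Mb, with 5 of 20 (25.0%); the STAG3-knockout list had 9 of 24 (37.5%) unmatched in the same window. The median window had 4.96% unmatched in the STAG3-only list and 10.2% in the STAG3-knockout list. These windows were picked for their shares, so the shares are a description.

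Read by gene, 315 of the 20665 autosomal protein-coding genes (1.52%) had a gene-end peak in the STAG3-only list and none in the STAG3-knockout list, and 523 (2.53%) had one in the STAG3-knockout list and none in the STAG3-only list. Both lists had one at 7035 genes (34.0%). A gene-end peak in 1 list alone need not be unmatched. A peak of the other list may overlap it without reaching the window. The cohesin and CTCF genes themselves carried no unmatched peak in 9 of 9 cases read: Stag1 (3 peaks in or near the gene in each list), Stag3 (1 each), the ring subunit gene Smc3 (2 each), its meiotic partner Smc1b (2 each), Ctcf (2 each) and its germline paralogue Ctcfl (4 each) held shared peaks, and the kleisin genes Rad21, Rad21l and Rec8 held none in either list. Unmatched peaks made up 5.24% of the STAG3-only and 10.3% of the STAG3-knockout list. With so few peaks at these genes, the lack of an unmatched one says little about them. A CTCF peak at Stag1 or Stag3 does not check the deletion of the gene.

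Among 20 genes of cohesin and its regulators, 0 had a gene-end peak in STAG3-only alone (against 1.52% of all genes). In STAG3-knockout alone there were 2 (10.0%, against 2.53%): the loader gene Nipbl (7.10, chr15:8467298-8467565) and Sgo1 (6.45, chr17:53689578-53689883), which protects centromeric cohesion. An unmatched gene-end peak was counted at 0 of the 20 in STAG3-only (against 2.59% of all genes) and 3 in STAG3-knockout (15.0%, against 3.76%). The Sgo1 peak was in both other CTCF lists and overlapped all 3 STAG3 lists and 2 STAG2 lists; the Nipbl peak was in the STAG1-only list alone. Meiotic genes (30), imprinted genes (27), primordial germ cell genes (11), neural genes (12), mesendoderm genes (12) and Sertoli genes (10) had 0 in either direction. Over all genes the shares were 1.52% in STAG3-only alone and 2.53% in STAG3-knockout alone. In lists this short, counts of 0 to 2 genes say little about a family. Spermatogonial genes had 1 of 27 in STAG3-only alone, the surface marker gene Cd9 (4.37), and naive pluripotency genes 1 of 15, Klf5 (3.90). The piRNA pathway had 1 of 21 in STAG3-knockout alone, Pld6 (5.16), and fibroblast feeder genes 1 of 12 in STAG3-only alone, Prrx1 (3.44).

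Among 20 genes of DNA methylation and Polycomb or other histone methylation, 2 were in STAG3-only alone (10.0%, against 1.52% of all genes). These were Uhrf1 (4.84, chr17:56301683-56301950), which brings DNA methyltransferase to replicated DNA, and Tet3 (4.69, chr6:83456645-83456921), which oxidises methylcytosine. The histone methyltransferase gene Suv39h2 (5.65) was in STAG3-knockout alone, 1 of the 20 (5.00%, against 2.53% of all genes). The Tet3 peak overlapped all 3 STAG3 lists and the Uhrf1 peak none, and neither was in another CTCF list.

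Of the 18 gene lists, histone genes had the highest share in STAG3-only alone, 8 of 67 genes (11.9%, against 1.52% of all genes), with 3 of 67 (4.48%, against 2.53%) in STAG3-knockout alone. Histone genes lie close together, and the 8 genes rested on 4 peaks, all on chromosome 13. H2bc14 had the peak described above (chr13:21721435-21721692), H4c18 and H2ac24 shared one with a fold enrichment of 3.90 (chr13:21833178-21833387), H4c8, H2ac10 and H3c8 one of 4.37 (chr13:23533949-23534167), and H2ac4 and H3c2 one of 4.53 (chr13:23751241-23751499). Each of the 4 peaks overlapped at least 2 STAG3 lists and none was in another CTCF list. The 3 STAG3-knockout genes rested on 2 peaks: H3c10 (17.2, chr13:21714717-21715133) lay in both other CTCF lists and in no STAG3 list, and H2ac15 and H2bc15 shared one (3.55, chr13:21753514-21753713) that overlapped all 3 STAG3 lists. Only 2 histone genes (2.99%) had an unmatched gene-end peak in STAG3-knockout, so not all of these 3 genes rested on an unmatched peak. The histone genes outside the naming rule were listed after their counts had been seen.

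Olfactory receptor genes, which are silent in most tissues, mostly had no gene-end peak in either list (96.3%, against 61.9% of all genes). Of 1104, 1 was in STAG3-only alone (Olfr575, 4.53; 0.0906%, against 1.52% of all genes) and 10 in STAG3-knockout alone (0.906%, against 2.53%). Of the 41 with a gene-end peak in any list, the 10 made up 24.4%, against 6.64% of the 7873 such genes in all. The strongest was Olfr270 (12.4, chr4:52969451-52969792), in no other CTCF list, followed by Olfr434 (7.10), Olfr1340 (6.94), Olfr1382 (6.78) and Olfr586 (6.62). Of the 388 genes named Zfp, mostly zinc-finger genes, 7 (1.80%) were in STAG3-only alone and 12 (3.09%) in STAG3-knockout alone, both near the percentages of all genes. The highest in STAG3-only were Zfp36l2 (4.84), Zfp990 (4.74), Zfp143 (4.69), Zfp663 (4.69) and Zfp94 (4.69). The highest in STAG3-knockout was Zfp874b (15.5, chr13:67486178-67486522), in no other CTCF list.

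Clustered protocadherin genes had a gene-end peak in both lists in 52 of 57 cases. In STAG3-knockout alone there were 2 (3.51%, against 2.53% of all genes), Pcdhb20 (7.42) and Pcdha9 (4.15). Unmatched gene-end peaks were counted at 3 of the 57 genes in STAG3-only (5.26%, against 2.59% of all genes) and 8 in STAG3-knockout (14.0%, against 3.76%), and these genes can share a peak. Hox genes had 1 of 39 in STAG3-only alone (2.56%, against 1.52% of all genes), Hoxb7 (5.00, chr11:96284481-96284738), which was in both other CTCF lists. They had 0 in STAG3-knockout alone (against 2.53%). Of 87 genes named Rpl or Rps, mostly for ribosomal proteins, Rpl30 (7.97, chr15:34438493-34438770) was in STAG3-only alone and in both other CTCF lists, and Rpl23a (3.39), Rpl10l (3.39) and Rps27 (5.27) were in STAG3-knockout alone. These shares were 1.15% and 3.45%, against 1.52% and 2.53% of all genes.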

How the data were processed

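ChIP-seq libraries were processed by the authors before deposit. The tools were MACS2, deepTools 3.5.0, bedtools 2.29.2, SAMtools 1.7, Bowtie2 2.3.4.1, cutadapt 1.9.1 and Trim Galore 0.4.1, per the submitters' processing notes, which name builds mm10 and GRCm38.p3. Their roles and options and the control libraries were not given in the sources used here. Each deposited narrowPeak list gives per peak the authors' fold enrichment (a linear ratio), −log10 of the q-value, and a score. The STAG lists also give −log10 of the p-value. CTCF lists were called on pooled libraries, per the peak names, and STAG lists per library. Depth is unknown. Separate cultures behind replicates are not stated in the labels, so a p-value reflects the spread among these lists alone, which may be technical.

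Peaks on chromosomes X and Y were left out. Overlaps, shares and permutation tests were computed in Python 3.11.15 (pandas 2.3.3, numpy 2.4.6, scipy 1.17.1) and tested on simulated data. Gene bounds were taken from RefSeq (GRCm38.p6), and gene ends are the outer bounds of a gene. List genes were matched by symbol or synonym. Named genes were the cohesin and CTCF genes, the nearest genes of the 10 unmatched peaks with the highest fold enrichment per list, the 5 genes with the most unmatched peaks per list, the 10 list genes per list with the highest gene-end peak found in 1 list only, and the 5 strongest unmatched peaks in all 3 STAG3 lists. Members and gene lists were chosen with earlier results of these data known. Alternatives were a stricter overlap, an extended match, q-value limits, equal list lengths, a narrower window, and list choices in the STAG test.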

Additional observations from a re-analysis of the deposited data

How the results depend on the processing

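An unmatched peak means that none was called in the other list, not that CTCF was absent there, and with depth unknown a longer list may be a deeper one. Requiring an overlap of 50% of the shorter peak, extending the other list by 250 bp, or requiring a −log10 q of at least 5 left both unmatched shares and both gene-end differences within their counting intervals (half-widths of 0.219, 0.290, 1.80 and 1.15 points), and the STAG difference without a pass. Counting peaks with a −log10 q of at least 10 against the whole other list gave unmatched shares of 3.32% (STAG3-only) and 8.97% (STAG3-knockout), and gene-end differences of −0.081 and −5.61 points; the first reversed, as did the STAG3-only difference inside genes (−0.31 points), and the cause was not tested. With the 20000 peaks of highest fold enrichment in each list, both unmatched shares were 9.18%, since lists of equal length leave nearly equal remainders, and the STAG3-knockout gene-end difference was −7.46 points. It was −2.08 points with windows of 1000 bp and −1.13 points at gene starts only, a setting added after the data were seen. The STAG3-only gene-end difference was 0.57 points with windows of 1000 bp and 3.58 points at gene starts only. With the 20000 strongest peaks, those called unmatched were mostly sites below the length limit of the other list: 0.272% (STAG3-only) and 5.29% (STAG3-knockout) were in neither other CTCF list, against 62.8% and 53.2%. The STAG value of 13.3 points (exact permutation p = 0.0357) there describes other peaks and is no support for the difference of 1.53 points. Leaving out each of the 8 STAG lists gave 1.13 to 1.98 points (exact permutation p from 0.0476 to 0.238). With the replicate number as a block it was 1.68 points (exact permutation p = 0.167; the smallest possible is 0.0556); the labels give no sign that equal numbers share a culture or day. With STAG lists of 9497 peaks each it was 0.229 points (exact permutation p = 0.196).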
